A study of Saccharomyces cerevisiae with 4 samples.

Results

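The genes described here encode 10 abundant cell wall proteins of the budding yeast Saccharomyces cerevisiae that carry a glycosylphosphatidylinositol (GPI) anchor: CWP1 (YKL096W), CWP2 (YKL096W-A), SED1 (YDR077W), SPI1 (YER150W), CCW12 (YLR110C), CCW14 (YLR390W-A), NCW2 (YLR194C), TIP1 (YBR067C), PST1 (YDR055W) and ECM33 (YBR078W). They were taken by systematic name from the 6484 features of the authors' deposited table, and all 10 are listed there. The table compares a strain labelled as carrying the BGL-6Kl genotype with YGP1 deleted and its parental strain BGL-6Kl, which has YGP1. Both strains share the BGL-6Kl background, which the labels do not spell out further. Untreated cultures in YPD, which is rich in yeast extract, peptone and glucose, were shaken at 200 rpm and 30 °C for 48 h. RNA was sequenced from 2 libraries per strain, which the series' design text calls biological replicates. The series chose this time because the enzyme activity it abbreviates BGL, measured on the cells, then began to differ between the strains. Whether the deletion strain is a single clone is not given in the sources used here.

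The table holds 1 mean normalised read count per strain, with no SD, and the authors' log2 fold change and adjusted p for the deletion strain over BGL-6Kl. Values of single libraries were recovered from these means where a single pair of whole reads fits the mean, and otherwise all fitting pairs are given, except for SED1. Within a strain, A is the deeper library and B the shallower, and neither letter stands for a replicate number. The recovered reads summed to 10154385 and 7419301 in deletion libraries A and B and to 14987529 and 12550102 in BGL-6Kl libraries A and B, without most features above a mean of 20000. Libraries of the same strain differed by a median absolute log2 value of 0.28 in the deletion strain and 0.18 in BGL-6Kl, taken over the 5266 features that reached 50 reads everywhere. The mean of the deletion strain lay closer to BGL-6Kl library A than to library B, with median absolute log2 differences of 0.45 and 0.52. YGP1 (YNL160W) itself averaged 18171 in the strain labelled as its deletion and 62470 in BGL-6Kl, 29.1% of the parental level. Reads of YGP1 were lower there but not absent, and which stretch of the gene they cover is unknown, so the deletion could not be fully checked.

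The GPI anchor is a glycolipid that is assembled in the endoplasmic reticulum and joined to the C-terminus of a protein by a transamidase. After remodelling of its lipid, the protein travels to the cell surface. There many yeast GPI proteins are cut from the membrane and linked through a remnant of the anchor to the branched glucan of the wall, where they form the mannoprotein coat. Most of the proteins described here are short, rich in serine and threonine and heavily O-mannosylated, and have no known enzymatic activity. Sed1 and Cwp2 are among the proteins whose C-terminal ends are used to display foreign enzymes on yeast cells. Ygp1 is a secreted glycoprotein without such an anchor.

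Of the 10 wall protein genes, 7 fell in the deletion strain and 0 rose at an adjusted p below 0.05 in the authors' deposited table. CWP1 and CCW12 fell most, to 12.6% and 18.5% of their BGL-6Kl means, followed by NCW2, PST1, CWP2, SED1 and CCW14 at 25.3% to 51.2%. TIP1, SPI1 and ECM33 did not pass, with means of 53.0%, 110% and 116% of BGL-6Kl. By the same threshold 10.3% of all listed features were called lower in the deletion strain and 9.65% higher, 20.0% in all. Among the 765 features that averaged at least 5000 over both strains, as all 10 of these genes do, 19.0% were called lower. At an adjusted p below 0.01, 3 of the 10 genes (CWP1, CWP2 and CCW14) were called lower, against 5.98% of all features called lower and 12.2% called in either direction. With a change of at least 2-fold required at 0.05, 6 of the 10 were lower, against 6.97% of all features. Adjusting the deposited p-values over the listed features alone gave 7 of the 10, against 10.4% of all features. The median log2 fold change was -1.21 over the 10 genes, 0.04 over all features and -0.10 over those 765 in the authors' deposited table. RNA came from whole cultures, so fewer cells with a transcript and less of it per cell cannot be told apart. Apart from the word biological, nothing says that the libraries of a strain came from separate cultures, so p-values measure only the spread between these libraries, which may be technical.

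**Figure D1:**
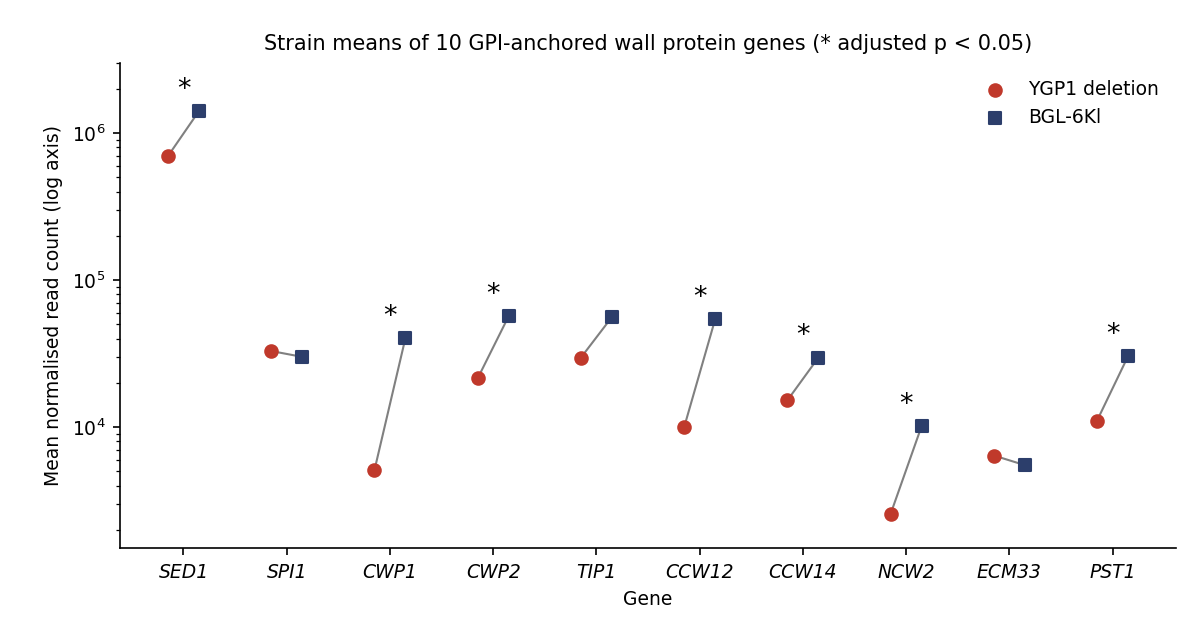
Mean normalised read count of each gene on a log axis, in the YGP1 deletion strain (red circles) and in BGL-6Kl (blue squares), from the authors' deposited table. Asterisks mark the 7 genes with an adjusted p below 0.05, all lower in the deletion strain, and SED1 stands above the other 9 genes in both strains.

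SED1 encodes the main structural GPI protein of the stationary phase wall, induced by stress and starvation. It had the most normalised reads of all listed features in both strains. Its mean was 698121 in the deletion strain and 1412038 in BGL-6Kl, a 2.02-fold lower level (authors' deposited table: log2 fold change -1.02, adjusted p 0.0112). The next feature, the acetate transporter gene ADY2, averaged 292039 in the deletion strain and 265613 in BGL-6Kl. SED1 thus stood 2.39-fold above it in the deletion strain and 5.32-fold above it in BGL-6Kl. The difference of the SED1 means was the largest fall in normalised reads of any listed feature. At this depth 276 pairs of whole reads fit the SED1 mean of the deletion strain and 6914 that of BGL-6Kl, so nothing is known of its values in single libraries.

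SPI1 encodes a smaller wall protein that resembles Sed1 in sequence and is induced by weak acids and at the end of growth on glucose. It did not pass the test, with means of 32896 in the deletion strain and 30019 in BGL-6Kl (authors' deposited table: log2 fold change 0.13, adjusted p 0.758). Its BGL-6Kl libraries A and B had 27586 and 32453 normalised reads. For the deletion strain 4 pairs fit: 6706 and 59086, 21034 and 44757, 35362 and 30429, and 49691 and 16100, of which only the third lies less than 2-fold apart. Under each of the 4 pairs at least 1 deletion library lies above a BGL-6Kl library. There were 21.2 SED1 reads per SPI1 read in the deletion strain and 47.0 in BGL-6Kl, a ratio of strain means that the scaling between strains does not touch. Whether the changes of SED1 and SPI1 differ was not tested.

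CWP1 and CWP2 encode mannoproteins of the wall and are adjacent on the same strand in the R64 assembly. CWP1, whose product is found at the birth scar, showed the largest fold difference of the 10 genes. Its mean was 5084 in the deletion strain and 40261 in BGL-6Kl, 7.92-fold lower (authors' deposited table: log2 fold change -2.99, adjusted p 4.62e-21). Deletion libraries A and B had 4944 and 5225 normalised reads of CWP1. The BGL-6Kl mean fits 4570 and 75952, 38534 and 41988, or 72497 and 8024, and only the second pair lies less than 2-fold apart. With the second or the third pair both deletion libraries lie below both BGL-6Kl libraries, and with the first they overlap.

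CWP2, which codes for a major and very short wall protein that protects cells at low pH, fell 2.65-fold, to 21435 in the deletion strain against 56741 in BGL-6Kl (authors' deposited table: log2 fold change -1.40, adjusted p 1.49e-05). Its deletion mean fits 7904 and 34967, 22232 and 20639, or 36560 and 6310, and its BGL-6Kl mean fits 29592 and 83890, 63556 and 49926, or 97519 and 15962. The deletion libraries lie below the BGL-6Kl libraries in 4 of the 9 combinations, among them that of the closest pairs of both strains. The ratio of CWP2 to CWP1 means was 4.22 in the deletion strain and 1.41 in BGL-6Kl, so by the strain means CWP1 fell further than its neighbour. No test of that difference was made.

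TIP1, related in sequence to CWP1 and known as a cold shock gene, averaged 29653 in the deletion strain and 55973 in BGL-6Kl. This difference did not pass (authors' deposited table: log2 fold change -0.92, adjusted p 0.0652). The 3 pairs that fit the deletion mean are 10875 and 48431, 25204 and 34102, and 39532 and 19774. For BGL-6Kl they are 12485 and 99462, 55435 and 56512, and 89398 and 22549. Deletion libraries lie below BGL-6Kl libraries in 3 of 9 combinations.

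CCW12, CCW14 and NCW2 encode wall proteins that were found in extracts of isolated walls or as wall genes induced by damage, and all 3 fell. CCW12, which acts in newly built wall and whose loss weakens the wall, averaged 9965 in the deletion strain and 53914 in BGL-6Kl, 5.41-fold lower (authors' deposited table: log2 fold change -2.44, adjusted p 0.0114). Its deletion libraries had 9156 and 10773 normalised reads. Its BGL-6Kl mean fits 4473 and 103356, 38437 and 69392, or 81386 and 26442. Even the closest of these pairs is 1.81-fold apart, whereas the deletion libraries differed 1.18-fold. In 2 of the 3 combinations both deletion libraries are lower.

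CCW14, an inner layer wall glycoprotein gene, had the smallest of the 7 falls. It averaged 15183 in the deletion strain and 29628 in BGL-6Kl, 1.95-fold lower (authors' deposited table: log2 fold change -0.96, adjusted p 0.0039). The BGL-6Kl libraries had 26490 and 32765 normalised reads, and the deletion mean fits 12352 and 18014 or 26681 and 3686. The first of these lies below both BGL-6Kl libraries and the second overlaps them.

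NCW2, a gene for a structural wall protein that rises when the wall is damaged, had the fewest normalised reads of the 10 in the deletion strain. It had 2458 and 2658 normalised reads in deletion libraries A and B, against 7280 and 12940 in BGL-6Kl libraries A and B. The deletion libraries were both below both BGL-6Kl libraries, and the BGL-6Kl libraries were 1.78-fold apart. By the strain means NCW2 fell 3.95-fold (authors' deposited table: log2 fold change -1.98, adjusted p 0.0268).

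CCW22 (YDR134C), a relative of CCW12 looked at for reads that the 2 genes might share, had 1503 and 1791 normalised reads in the deletion libraries and 3475 and 5228 in BGL-6Kl. It fell as well (authors' deposited table: log2 fold change -1.40, adjusted p 0.0125). No window of 50 bases of the CCW12 or CCW22 coding sequence occurs elsewhere in R64 as an exact match. The same holds for the coding sequences of the other 9 genes. None of the 10 overlaps another annotated gene in R64. Only exact matches of coding sequence within R64 were searched. Whether reads are shared through similar sequence, or through sequence of the BGL-6Kl background that R64 lacks, was not tested.

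**Figure D2:**
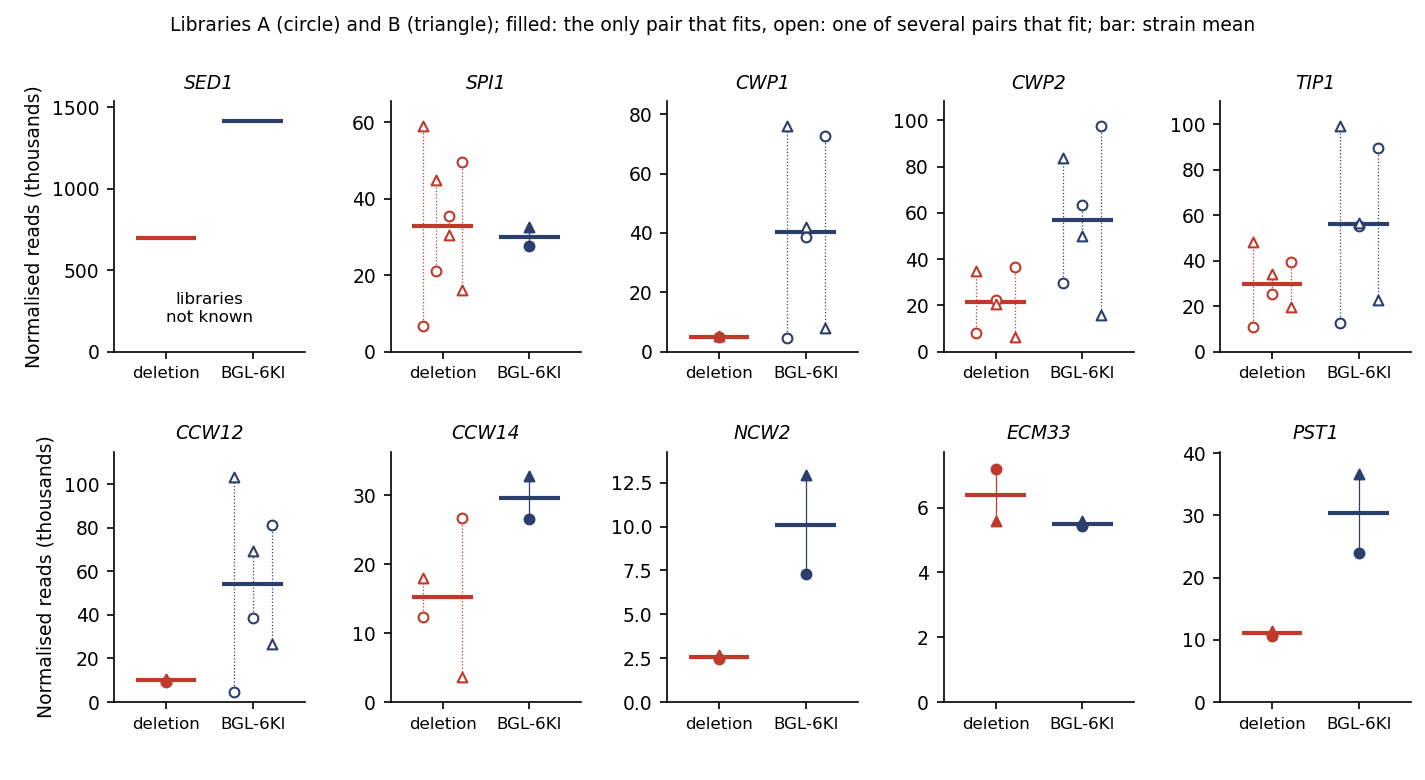
Normalised reads of the 10 genes (axes in units of 1000 reads) in the YGP1 deletion strain (red, left) and BGL-6Kl (blue, right), with library A as circles, library B as triangles and the strain mean as a bar. Filled symbols are the only pair of whole reads that fits the mean and open symbols are alternatives, and in NCW2 and PST1 both deletion libraries lie below both BGL-6Kl libraries.

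ECM33 and PST1 encode related proteins of the membrane and wall with different regulation, PST1 being known as a gene induced by the cell wall integrity pathway and ECM33 as one needed for normal wall assembly and budding. PST1 had 10611 and 11485 normalised reads in deletion libraries A and B, against 23963 and 36631 in BGL-6Kl. Both deletion libraries were below both BGL-6Kl libraries. The strain means of 11048 in the deletion strain and 30297 in BGL-6Kl differed 2.74-fold (authors' deposited table: log2 fold change -1.46, adjusted p 0.0134). ECM33 had 7199 and 5601 normalised reads in the deletion libraries, against 5435 and 5576 in BGL-6Kl. The deletion libraries were both higher, library B by little, and ECM33 did not pass (authors' deposited table: log2 fold change 0.22, adjusted p 0.598).

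Ratios within a library do not depend on how libraries were scaled. There were 1.47 and 2.05 PST1 reads per ECM33 read in deletion libraries A and B, against 4.41 and 6.57 in BGL-6Kl libraries A and B. NCW2 reads per ECM33 read were 0.341 and 0.475 in the deletion libraries, against 1.34 and 2.32 in BGL-6Kl. Neither ratio overlapped between the strains. NCW2 reads per PST1 read were 0.232 and 0.231 in the deletion libraries and 0.304 and 0.353 in BGL-6Kl. The NCW2 to PST1 ratio did not overlap either, but it differed less. How often ratios of other genes separate in this way was not counted. For single features such separation was common: of 6183, the deletion libraries were both below the BGL-6Kl libraries in 33.0% and both above in 33.2%. With 2 libraries per strain the smallest p of an exact permutation test is 0.333, and no such test was made.

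Only NCW2, PST1 and ECM33 had a single fitting pair in both strains. In these 3, limma on log2(normalised read count + 1) of the 4 libraries, fitted across 6115 features, called NCW2 (log2 fold change -1.92, SE 0.27, adjusted p = 0.000964) and PST1 (-1.42, SE 0.26, adjusted p = 0.00325) lower. ECM33 had a log2 fold change of 0.21 (SE 0.22, adjusted p = 0.51 by limma). That fit called 14.9% of features lower, and its values were recovered from the same deposited means. In 33.0% of the 6183 features recovered in both strains the deletion libraries were both below the BGL-6Kl libraries, as for NCW2 and PST1, and in 33.2% both above, as for ECM33. Without BGL-6Kl library B the NCW2 log2 fold change was -1.51 (adjusted p = 0.00114 by limma) and that of PST1 was -1.12, and PST1 no longer passed (adjusted p = 0.0747 by limma). Without either deletion library limma called 0 of 6115 features, with 2322 and 2288 at an unadjusted p below 0.05.

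For the other genes the closest pair is a description and not the known value. Among features with a mean of 2000 to 20000 and a single fitting pair, the libraries were at least 2-fold apart in 5.09% of 1394 features in the deletion strain. In BGL-6Kl they were so in 0.597% of 1508. Of the wall protein means that several pairs fit, all but that of CCW14 in the deletion strain lie above 20000. The share was not counted there, and in the deletion strain 0 of 161 features above 20000 had a single fitting pair. A log2 difference between the strains was taken between the mean log2 values of their libraries. It stayed negative over all fitting pairs for CWP1 (-2.98 to -1.87), CWP2 (-1.89 to -0.88), CCW12 (-2.38 to -1.11), CCW14 (-1.57 to -0.98) and TIP1 (-1.29 to -0.27). For SPI1 it ran from -0.59 to 0.13, and for SED1 from -4.15 to 6.32. Every pair is bound to the deposited strain mean, so these ranges are no separate test of the difference.

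**Figure D3:**
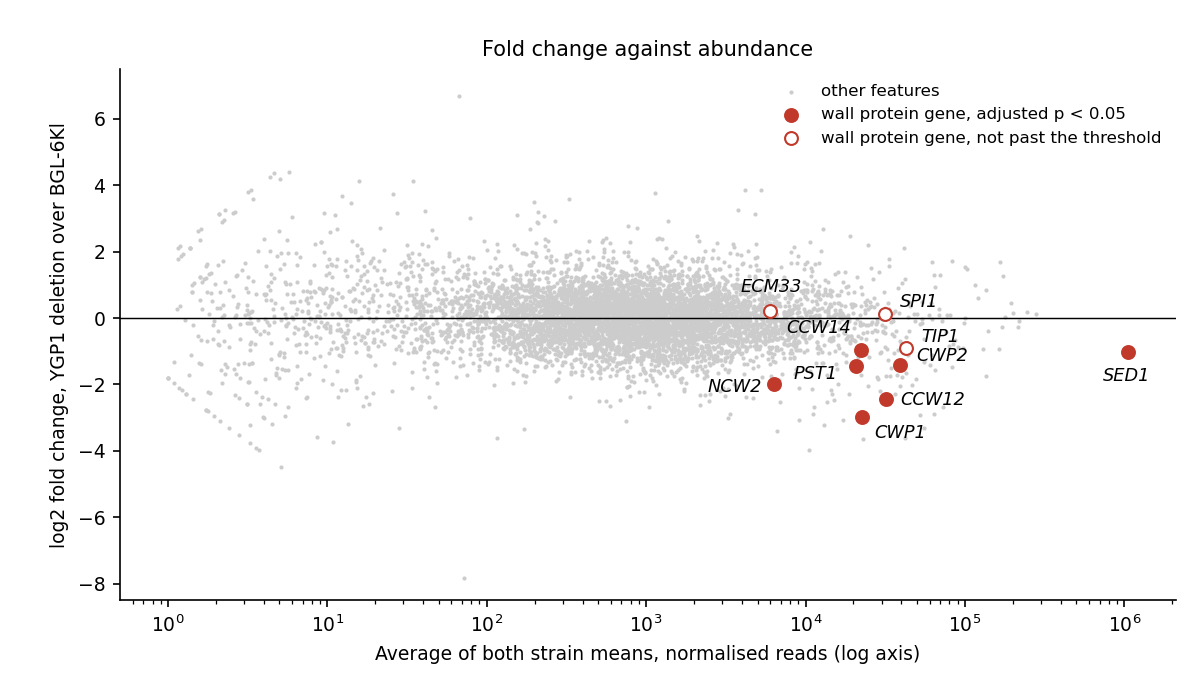
Authors' log2 fold change of the YGP1 deletion strain over BGL-6Kl against the average of both strain means on a log axis, for features averaging at least 1 and not at 0 in BGL-6Kl (grey) and the 10 wall protein genes (red, filled where the adjusted p is below 0.05). SED1 lies alone at the right edge, and SPI1 and ECM33 sit just above 0.

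The 10 genes together took up 832343 normalised reads in the deletion strain and 1724487 in BGL-6Kl. That is 4.02% of all normalised reads in the deletion strain and 7.52% in BGL-6Kl. SED1 alone gave 3.38% in the deletion strain and 6.16% in BGL-6Kl, and 80.0% of the difference in the sum of the 10. Without SED1 the other 9 genes took 0.649% in the deletion strain and 1.36% in BGL-6Kl, and their summed reads in the deletion strain were 43.0% of those in BGL-6Kl. SPI1 took the most reads of these 9 in the deletion strain, whereas in BGL-6Kl CWP2, TIP1, CCW12, CWP1 and PST1 all took more. Among all features, 4 of the 10 genes ranked in the top 200 by mean in the deletion strain (SED1, SPI1, TIP1 and CWP2), against 8 in BGL-6Kl. CWP1 stood at rank 728 in the deletion strain against rank 92 in BGL-6Kl, and NCW2 at rank 1375 in the deletion strain against rank 380 in BGL-6Kl.

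**Figure D4:**
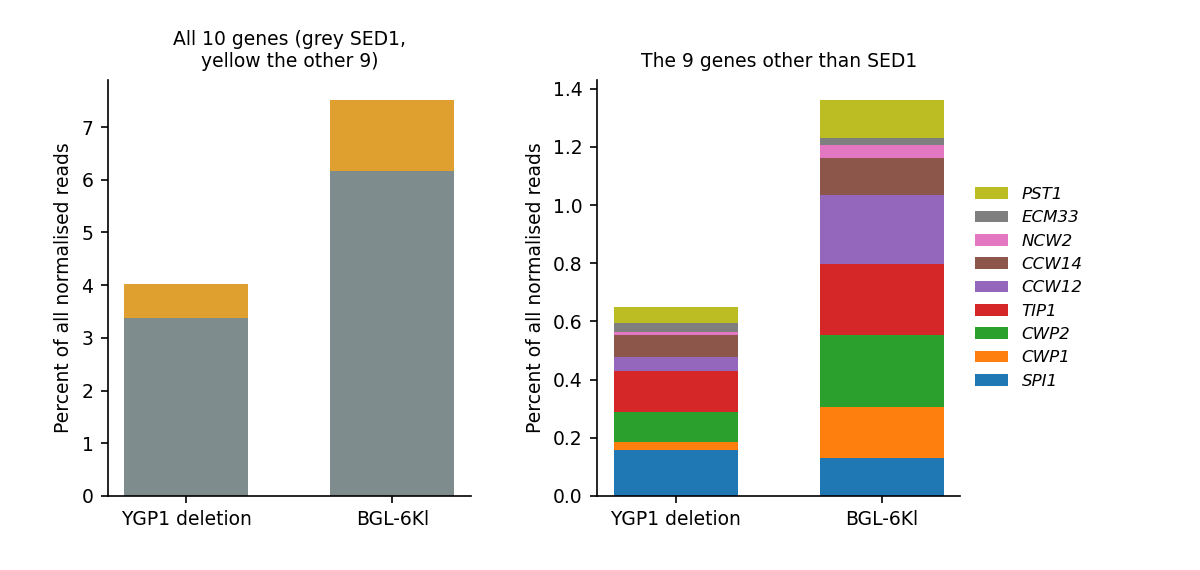
Percent of all normalised reads taken by the 10 genes (left panel, SED1 in grey and the other 9 in yellow) and by each of the 9 genes other than SED1 (right panel), in the YGP1 deletion strain and in BGL-6Kl. The left bars reach 4.02% in the deletion strain and 7.52% in BGL-6Kl.

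Reads above are not corrected for gene length, and levels of different genes are compared per kilobase of coding sequence, with coding lengths from R64. SED1 led the 10 genes with 686452 normalised reads per kb in the deletion strain and 1388435 in BGL-6Kl. CWP2, the shortest at 279 bases, came next with 76829 per kb in the deletion strain and 203371 in BGL-6Kl. SPI1 followed in the deletion strain at 73592 per kb, against 67157 in BGL-6Kl, where CCW12 (134115 per kb) and TIP1 (88426 per kb) stood above it. The lowest levels were those of NCW2 in the deletion strain, 3344 per kb, and of ECM33 in BGL-6Kl, 4268 per kb. Among 5859 features with a coding length SED1 ranked 4 per kb in the deletion strain and 1 in BGL-6Kl. Without an SD per strain mean, neighbours in this order cannot be said to differ beyond their spread.

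Of 17 listed genes that lie next to one of the 10 in R64 and are not among them, 1 was called. Over all features 20.0% were called in either direction, and with so few neighbours no contrast is drawn. It was AHP1, a peroxiredoxin gene beside CCW12, which was higher in the deletion strain (32255 in the deletion strain and 5834 in BGL-6Kl, with a log2 fold change of 2.47 and an adjusted p of 1.24e-11 by the authors' deposited table). The other 16 did not pass, and CWP1 and CWP2 adjoin each other.

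Of 18 genes of GPI precursor synthesis 3 rose and 2 fell (median log2 fold change 0.21 in the authors' deposited table). Over all features 9.65% were called higher and 10.3% lower. MCD4 and GWT1, which add ethanolamine phosphate and an acyl chain to the precursor, rose: MCD4 had 651 and 454 normalised reads in the deletion libraries and 237 and 244 in BGL-6Kl, and GWT1 had 878 and 601 in the deletion libraries against 326 and 351 in BGL-6Kl (authors' deposited table: adjusted p 0.00663 and 0.015). GPI12, the deacetylase of an early step, fell, with 1126 and 896 in the deletion libraries against 2222 and 2281 in BGL-6Kl (authors' deposited table: adjusted p 0.00148). GPI11, which takes part in a late step, fell too, with 131 and 137 in the deletion libraries against 285 and 273 in BGL-6Kl (authors' deposited table: adjusted p 0.025). None of the 5 transamidase genes GPI8, GAA1, GPI16, GPI17 and GAB1 passed, with log2 fold changes of -0.61 to 0.48 in the authors' deposited table.

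Among 11 genes of anchor remodelling and exit from the endoplasmic reticulum 3 rose and 0 fell (median log2 fold change 0.61 in the authors' deposited table). The shares over all features were 9.65% called higher and 10.3% lower. CWH43, which exchanges the anchor lipid for ceramide, had 8511 and 7678 normalised reads in the deletion libraries and 3280 and 3509 in BGL-6Kl (authors' deposited table: adjusted p 0.000134). PER1, which removes an acyl chain from the lipid, had 494 and 459 in the deletion libraries against 154 and 190 in BGL-6Kl (authors' deposited table: adjusted p 0.000265). SFB3, also called LST1, a coat protein of export vesicles, had 2908 and 2589 in the deletion libraries against 1280 and 1284 in BGL-6Kl (authors' deposited table: adjusted p 0.0014). In all 3 the deletion libraries lay above both BGL-6Kl libraries, as in 33.2% of the 6183 features recovered in both strains. The 3 genes were named because they were called higher, so this order is no separate support.

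Another list held 9 genes for linking GPI proteins to the wall, for making the glucan they are linked to, or for joining chitin to glucan. Of these 9 genes 2 rose and 2 fell (median log2 fold change 0.19 by the authors' deposited table). By the same threshold 9.65% of all features were called higher and 10.3% lower. CRH1 and UTR2 code for related enzymes that join chitin to glucan and moved in opposite directions. CRH1 fell, with 4094 and 4813 normalised reads in the deletion libraries against 9156 and 11287 in BGL-6Kl (authors' deposited table: adjusted p 0.000319). UTR2 rose, with 220 and 196 in the deletion libraries against 72.7 and 76.8 in BGL-6Kl (authors' deposited table: adjusted p 0.00326). KRE9, needed for the glucan to which GPI proteins are linked, fell 2.41-fold and BIG1, also needed for it, rose 1.83-fold (authors' deposited table: adjusted p 0.000135 and 0.0365). DFG5 and DCW1, which are thought to transfer GPI proteins to the wall, missed the threshold, at log2 fold changes of -0.17 and 0.30 by the authors' deposited table.

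The other GPI-anchored enzymes and surface proteins changed in both directions, 4 up and 4 down among 24 (median log2 fold change 0.12 in the authors' deposited table). Of all features, 9.65% were called higher and 10.3% lower. YPS6, an aspartyl protease gene, rose 3.08-fold (6730 and 5330 normalised reads in the deletion libraries, 1909 and 2003 in BGL-6Kl, with an adjusted p of 3.66e-07 by the authors' deposited table). FIG2, a mating adhesin gene, and EXG2, a glucanase gene, rose 2.62-fold and 2.34-fold (authors' deposited table: adjusted p 0.000201 and 0.00183). CRR1, a spore wall relative of CRH1, fell 2.33-fold (authors' deposited table: adjusted p 0.00052). GAS5, EGT2, PRY3, PLB1 and YPS1 of this list averaged at least 5000 over both strains, as the 10 wall protein genes do. All had negative log2 fold changes: -0.98, -2.09, -0.81, -0.13 and -0.96 in that order. GAS5 and YPS1 passed (authors' deposited table: adjusted p 0.00467 and 0.00551). At that level of reads 19.0% of 765 features were called lower. Over these 5 lists and the list of transcription factors below, 12 of 77 genes rose and 10 fell, which is 28.6% called against 20.0% of all features.

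Of 10 transcription factors known for wall and stress genes 2 fell and 0 rose (median log2 fold change -0.54 by the authors' deposited table). That compares with 10.3% of all features called lower and 9.65% called higher. MSN2, a general stress activator on which basal SPI1 expression depends, had 1839 and 1458 normalised reads in the deletion libraries and 3685 and 4018 in BGL-6Kl (authors' deposited table: adjusted p 0.00052). HAA1, the weak acid activator that has SPI1 among its targets, had 1491 and 1663 in the deletion libraries and 2874 and 2966 in BGL-6Kl (authors' deposited table: adjusted p 0.0121). RLM1, the factor of the cell wall integrity pathway that drives PST1 and CWP1, did not pass (9906 in the deletion strain and 7992 in BGL-6Kl, with a log2 fold change of 0.31 and an adjusted p of 0.553 by the authors' deposited table). Whether any of these moved with the wall protein genes was not tested.

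**Figure D5:**
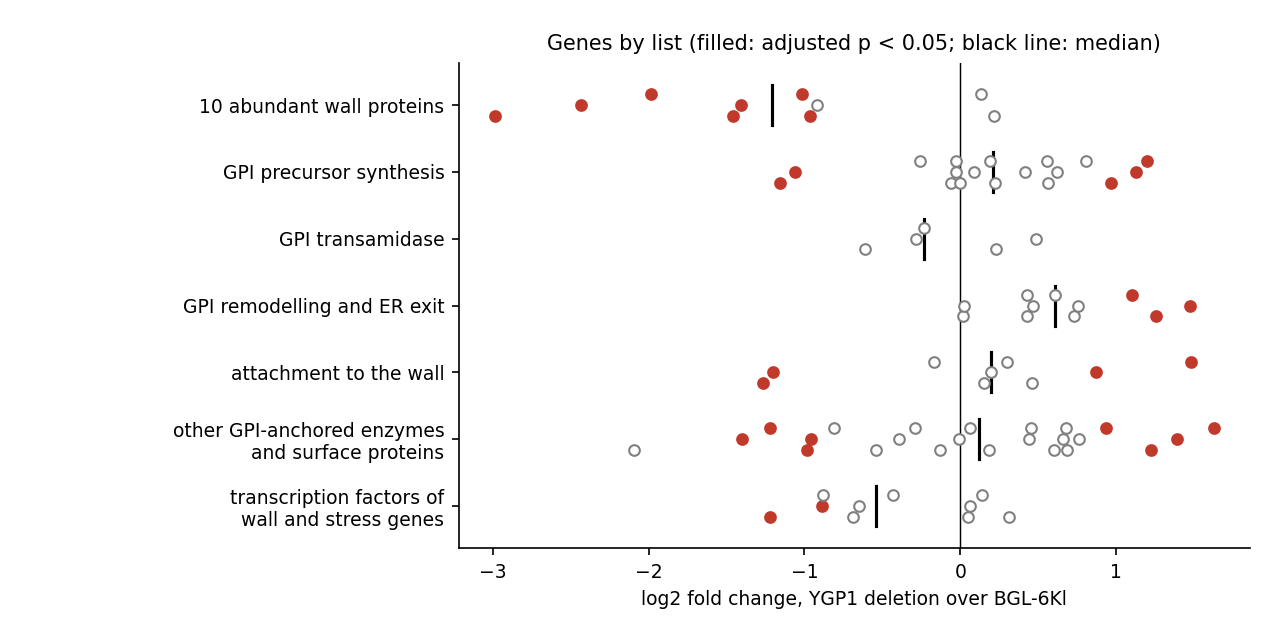
Authors' log2 fold change of the YGP1 deletion strain over BGL-6Kl for each gene of 7 groups, with genes at an adjusted p below 0.05 filled and the median of each group as a black line. The 10 wall protein genes have 7 filled points, all below 0, and the 11 remodelling genes have 3, all above 0. Over all features 10.3% were called lower and 9.65% higher.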

How the data were processed

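Total RNA was extracted with TRIzol and sequenced, per the labels' protocols. Which aligner, read counter, build, annotation, strand setting and test the authors used is not given in the sources used here. The deposited table holds, per the file headers, a read count per strain, and its values show this signal to be the authors' mean over both libraries of read counts divided by a size factor. Each feature also has a deposited log2 fold change and p-value, raw and adjusted.

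Whole reads of both libraries were solved from each strain mean, taking all pairs that match it to within 0.55 units of its last digit. The solution was unique for 95.6% of features in the deletion strain and 98.2% in BGL-6Kl. The size factors were 1.13 (A) and 0.797 (B) in the deletion strain, against 1.16 (A) and 0.964 (B) in BGL-6Kl. The step was tested on simulated data, as was limma 3.58.1 in R 4.3.3 (intensity trend, 2-sided, Benjamini-Hochberg, features with a mean of at least 1), which was used as an alternative on log2(normalised read count + 1) and is on that scale. The outcome of these simulations is not reported here. The main calls are the authors', at an adjusted p below 0.05. Of 6484 features, 5869 matched R64 locus tags, and R64 served for names, neighbours, overlaps, shared windows and coding lengths only. Promoter motifs and protein sequences, planned in the design, are not reported here. The genes and lists were chosen with earlier results of these data known. All 10 genes are named, plus up to 4 called genes per further list by adjusted p. CCW22, AHP1, ADY2, GPI8, GAA1, GPI16, GPI17, GAB1, DFG5, DCW1, KRE1, ROT1, GAS5, EGT2, PRY3, PLB1, YPS1 and RLM1 were added after their values were seen.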

Additional observations from a re-analysis of the deposited data

How the results depend on the processing

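At an adjusted p below 0.01 the authors' table called 3 of the 10 genes (CWP1, CWP2 and CCW14) in place of 7, because SED1, CCW12, PST1 and NCW2 lie between the thresholds. Over all features 5.98% were called lower at that threshold, against 10.3% at 0.05. The count was 6, without CCW14, with a change of at least 2-fold also required (6.97% of all features) and 7 with p-values adjusted over the listed features only (10.4%). By limma 2 of the 3 genes it could fit were called, against 14.9% of all features called lower, and the count was again 2 with another pseudocount or filter (14.7% to 15.9%). Without the intensity trend it was 2 as well, but limma called 718 features in place of 1757 and 5.49% lower, and the adjusted p was 0.0404 for NCW2 and 0.0459 for PST1 in place of 0.000964 and 0.00325. Leaving out a library in turn it was 0 to 2, being 0 without either deletion library (0 features called in all), 1 without BGL-6Kl library B (6.59% of features lower) and 2 without BGL-6Kl library A (11.3%), in fits that assume the lone library of a strain to vary like the others. Without deletion library A or B the log2 fold changes were -1.87 and -1.98 for NCW2 and -1.37 and -1.48 for PST1, against -1.92 and -1.42 with all libraries. Rescaling both strains to the same total, with or without features above 20000, or to the same median ratio moved the median log2 fold change of the 10 genes to between -1.22 and -1.06. No gene changed sign under these scalings, of which the largest adds 0.15. The further lists had 15 of 77 genes called at an adjusted p below 0.01, where 12.2% of all features were, in place of 22, where 20.0% were. No paired analysis was possible because the strain means and the libraries recovered from them carry no replicate numbers. The reads of the most abundant genes, SED1 above all, cannot be assigned to libraries at the precision of the deposited means.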
